A study of Sus scrofa with 9 samples.

Results

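The probes for the actin and tubulin cytoskeleton on a porcine expression array were followed in whole blood over 3 times around an oral dose of azide. The members were the non-control probes whose description in the scanner files held F-actin, actin followed by a comma, beta-actin, cofilin, tropomyosin, gelsolin or tubulin, in any case. They numbered 58 of 43603 probes and carried 33 of the 41325 gene or transcript cluster names on the array, 18 on the actin side, 14 on the tubulin side and 1 outside both. The actin side had 28 probes and the tubulin side 28. The other 2 were for ATRN (attractin, a membrane protein), which was caught only because its name ends in the letters searched for. No description held actin-related protein, profilin or coronin. The only actin among the members was Z98823, a cDNA described as similar to alpha actin, so the actin side consisted of actin-binding proteins in all but 1 probe.

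The blood came from male Clawn miniature pigs, labelled SPF, that were given 300 µg/kg of azide by mouth. Azide is a poison of mitochondrial respiration, and the labels do not name the salt. The groups were blood taken before the dose (0 h), at 6 h and at 24 h, with 3 one-colour arrays each and 9 in all. The age is given as 7 months in one label and 7 weeks in another. No pigs without azide were sampled at 6 h or 24 h, so the passing of time and azide cannot be told apart, and the arrays of each time lay on a slide of their own, so slide and time cannot be told apart either. Whether equal replicate numbers mark the same pig is not stated in the labels, and p-values measure only the spread between these samples.

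Actin filaments grow and shrink at their ends. Capping protein (an alpha and a beta subunit) blocks the fast-growing end, gelsolin cuts filaments and caps them, cofilin severs them and speeds their loss, and tropomyosins lie along the filament and set which other proteins can bind. Microtubules are built from dimers of alpha and beta tubulin, which tubulin folding cofactors assemble and which tubulin tyrosine ligase modifies at the end of the alpha chain. In blood, actin filaments drive the crawling and phagocytosis of neutrophils and monocytes and the shape change of platelets, and a ring of microtubules keeps the resting platelet flat.

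The array measures each gene through probes of 60 bases, and several members are neighbouring probes on 1 target. The sequences are shown for TPM3, TUBB and CFL1, whose probes could be compared along one transcript. Capitals mark the stretch that a probe shares with its neighbour in the list, and the number is the first base of the probe in its target sequence as the files give it. Probes that start beyond base 1300 are shown by their first 30 bases. All are written 5′ to 3′, as the scanner files hold them.
TPM3 397: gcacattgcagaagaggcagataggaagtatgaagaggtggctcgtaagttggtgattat
TPM3 539: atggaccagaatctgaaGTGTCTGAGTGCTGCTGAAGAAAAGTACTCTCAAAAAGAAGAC
TPM3 556: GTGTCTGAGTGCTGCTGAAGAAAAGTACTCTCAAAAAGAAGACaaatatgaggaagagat
TUBB 647: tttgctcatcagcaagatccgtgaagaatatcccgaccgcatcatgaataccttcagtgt
TUBB 781: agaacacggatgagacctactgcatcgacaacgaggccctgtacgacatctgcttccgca
TUBB 1165: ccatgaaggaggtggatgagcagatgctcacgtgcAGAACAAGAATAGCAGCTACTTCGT
TUBB 1201: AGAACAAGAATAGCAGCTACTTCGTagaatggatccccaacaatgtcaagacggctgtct
TUBB 1848: ttccaaccaaatcccatttagaacctgata
TUBB 2313: ggggacaacatcttttcggcaacatctcat
TUBB 2419: cttgctttttgtcatattgaaaagatgact
CFL1 761: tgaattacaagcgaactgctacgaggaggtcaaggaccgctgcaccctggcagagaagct
CFL1 1330: cactcatggaagcaggaccagtaagggacc
The TPM3 probes at 539 and 556 share 43 bases, so their values are repeat readings of nearly one stretch and not independent measurements. In all, 10 pairs of members shared 20 or more bases on the same strand, 5 of them on one named target, and TC301900 shared 32 bases with the TPM1 probe at 709 on the opposite strand.

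Levels are log2 processed spot signal minus the 75th percentile of the array, so 0 is a signal equal to that percentile, and a level was set against other probes only to choose which probe of a role is given array by array. A probe was tested where, at 1 or more of the times, the scanner software rated all 3 arrays well above background. This held for 43 members: 16 on the actin side, 26 on the tubulin side and 1 for ATRN. The filter lets in a probe through the group where it is high. Of the 58 members, 38 were well above background on all 9 arrays and 9 on none. Members above background nowhere were the probes for LOC100037959 (capping protein beta 1), TC260287 (like the capping protein alpha 1 subunit), TC251773 (like neurabin-1), TC285062 (like a beta-actin-binding protein), TC239388 (a tropomyosin), TC300990 (an alpha tubulin), 1 of 4 for CFL2, 1 of 5 for TPM1 and 1 of 2 for ATRN.

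Over the whole array, limma called 5 of 19783 tested probes at 6 h against 0 h at an adjusted p below 0.05, which is 0.0253%. It called 0 at 24 h against 0 h (0%) and 0 at 24 h against 6 h (0%). At an unadjusted p below 0.05, 5050, 2745 and 4270 probes stood out in these comparisons. Between 39.9% and 46.6% of spots were well above background at 0 h, between 42.4% and 47.8% at 6 h and between 45.5% and 56.6% at 24 h, and no spot was saturated.

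No cytoskeletal member passed the adjusted threshold in any of the 3 comparisons, so every change given here is a value that did not pass. At 6 h against 0 h, 33 of 43 members (76.7%) had the higher mean at 6 h, against 52.6% of all tested probes. An unadjusted p below 0.05 was reached by 6 members, all higher at 6 h, or 14.0%, which is near the 14.7% of all tested probes that were higher at that level; 0 members were lower at that level, against 10.9% of all probes. The 6 h arrays lay wholly above the 0 h arrays for 12 members (27.9%), against 16.0% of all tested probes, and wholly below them for 0, against 10.6%. The 6 were the 3 TPM3 probes, the TUBA1B probe at 744, TC251398 and TC263985. TC251398 and TC263985 are also among the 12. These 2 are tied to tubulin only by a short match outside the vertebrates, and TC263985 was above background on no 0 h array.

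At 6 h against 0 h the median log2 change was 0.47 over the 16 actin-side probes, 13 of them higher, and 0.52 over the 26 tubulin-side probes, 19 of them higher. The median over all tested probes was 0.05. How near the sides lay to each other depended on the processing: the medians at 6 h were 0.26 for actin and 0.45 for tubulin with normexp background correction. With no filter they were 0.18 and 0.51, over more probes. That setting adds the 12 actin-side and 2 tubulin-side probes that were not tested. Of these, 7 on the actin side and 1 on the tubulin side were above background on no array. By 24 h the medians against 0 h were 0.17 for actin, with 12 of 16 higher, and 0.14 for tubulin, with 16 of 26 higher, beside -0.01 over all probes. Probes of one gene share their target, so these counts are of probes and not of genes.

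At 24 h against 6 h the actin side had a median of -0.34, with 11 of 16 probes lower, but it was 0.01 after quantile normalization and in the authors' deposited values and 0.41 with spike-in centring. The tubulin side had a median of -0.38, with 24 of 26 lower. It was -0.11 after quantile normalization and -0.10 in the authors' deposited values, with 18 of 26 lower in each. With spike-in centring it was 0.37, where all tested probes moved by a median of 0.66. Against 0 h, spike-in centring brought the median of all tested probes to 0.25 at 6 h and 0.94 at 24 h, a move of 0.20 and 0.95 from the scaling used here. Under it 21 of 43 members (48.8%), all higher, passed the adjusted threshold at 24 h against 0 h, beside 19.6% of all tested probes, and 0 passed at 6 h. An unadjusted p below 0.05 was reached by 5 members at 24 h against 6 h, all lower, which is 11.6% beside 13.6% of all tested probes; 0 were higher, beside 7.97%. The 24 h arrays lay wholly below the 6 h arrays for 12 members (27.9%), against 16.5% of all tested probes. The 5 were the 3 TPM3 probes, the TUBB probe at 1165 and TC263985. In the comparison of 24 h with 0 h, 2 members (4.65%), CAPZA1 and TC263985, were higher at an unadjusted p below 0.05 and 0 lower. This stood beside 5.32% and 8.56% of all tested probes. There 3 members lay wholly higher and 3 wholly lower (6.98% each), against 7.50% and 19.0%. TC263985 is also among the 3 wholly higher. It was above background on no 0 h array and was tested only through the later times, so nothing is read from its place in these counts against 0 h.

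The array values show how far single samples carried these medians. Each probe was set to its own mean over the 9 arrays, and the deviations were averaged. On the actin side the mean deviation was -0.44, 0.09 and -0.21 on the 0 h arrays, 0.16, 0.26 and 0.21 at 6 h, and 0.01, 0.10 and -0.17 at 24 h. The 6 h arrays all lay above the 0 h arrays, by a narrow margin over 0 h replicate 2. On the tubulin side it was -0.60, 0.27 and -0.03 at 0 h, 0.05, 0.35 and 0.31 at 6 h, and -0.20, 0.13 and -0.27 at 24 h. There the groups overlapped, and the lowest array of all was 0 h replicate 1. Without that array the medians at 6 h against 0 h were 0.29 for actin and 0.24 for tubulin, and at 24 h against 0 h they were 0.05 for actin and -0.21 for tubulin.

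The actin side minus the tubulin side averaged -0.07 ± 0.20 at 0 h, -0.02 ± 0.11 at 6 h and 0.09 ± 0.12 at 24 h (SD, n = 3 each). Its 9 array values ran between -0.19 and 0.21, and the times overlapped. The means of the 3 times differed from each other by less than the SD of the 0 h arrays, and no p was computed for them.

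**Figure D1:**
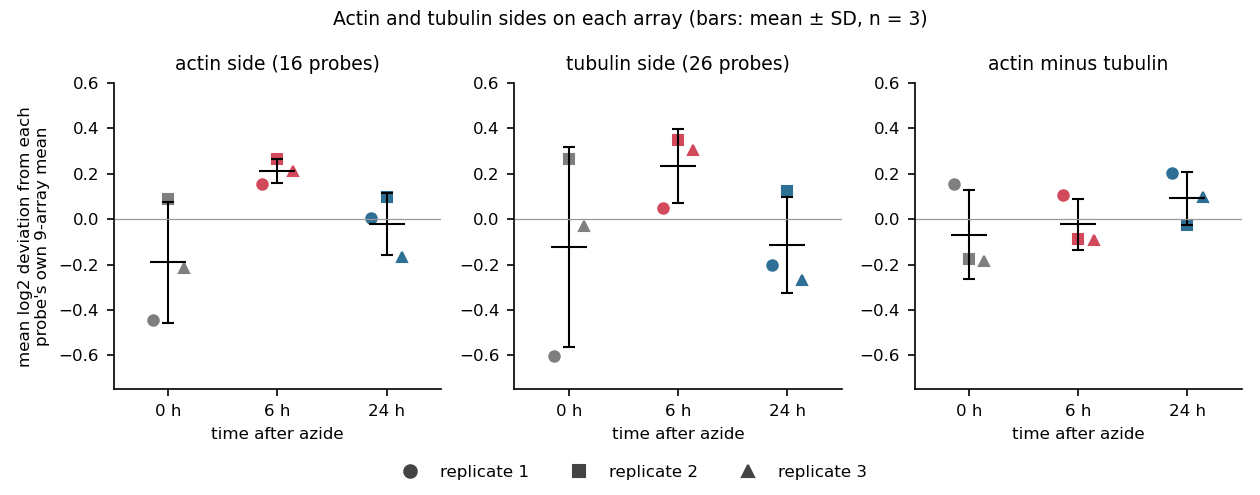
Mean log2 deviation of the tested actin-side probes, the tubulin-side probes and their difference on each of the 9 arrays (vertical axis, each probe set to its own mean) at 0 h, 6 h and 24 h after azide (horizontal axis). Symbols are arrays and bars are the mean ± SD of 3; both sides were highest on average at 6 h, and the difference overlapped between all times.

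Markers of blood cell types moved over the same arrays. The summed signal of the 3 neutrophil markers with a tested probe, of 10 listed (LTF, NCF1 and MMP9), lay between 7.43 and 8.50 on the log2 scale at 0 h, between 9.15 and 10.6 at 6 h and between 6.96 and 8.27 at 24 h. The summed signal of 5 of 8 monocyte markers lay between 6.88 and 7.34 at 0 h, between 8.38 and 9.85 at 6 h and between 7.39 and 8.64 at 24 h. That of 7 of 10 T cell markers lay between 6.02 and 6.70 at 0 h, between 4.19 and 6.01 at 6 h and between 5.87 and 5.96 at 24 h. Neutrophil and monocyte signals were thus higher on every 6 h array than on any 0 h array, and T cell signals were lower, by a narrow margin on 6 h replicate 2. A sum follows its brightest markers most. At 24 h against 0 h, LTF stood at 1.41 ± 0.81, NCF1 at 0.91 ± 0.53 and MMP9 at -0.63 ± 0.54 (SE, limma adjusted p = 0.46, 0.47 and 0.62). With each marker set to its own 9-array mean, the neutrophil list averaged -1.57, -0.74 and -0.99 at 0 h. By that measure it was -0.62, -0.34 and -0.64 at 24 h, above every 0 h array.

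The sum over 2 of 5 NK and cytotoxic markers (KLRK1 and PRF1) lay between 1.87 and 3.17 at 0 h, between 0.11 and 2.07 at 6 h and between 1.68 and 2.27 at 24 h, and was lowest on 6 h replicates 1 and 3. The 1 tested red cell marker of 7, HBE1, an embryonic globin, lay between 6.97 and 7.51 at 0 h, between 6.52 and 7.42 at 6 h and between 5.47 and 6.74 at 24 h, where every array was below every 0 h array.

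The sum over 3 of 7 platelet markers lay between 5.07 and 7.54 at 0 h, between 6.46 and 7.38 at 6 h and between 5.84 and 7.41 at 24 h. It was lowest on 0 h replicate 1, where both cytoskeletal sides were also lowest. By mean deviation the neutrophil and monocyte lists were lowest on that array too, at -1.57 and -1.26, beside -1.30 for platelets. The neutrophil and monocyte sums were lowest on other arrays. None of these cell lists had a listed marker with a named probe that stayed at background on all arrays. No listed marker passed the adjusted threshold in limma at any time; LTF, a neutrophil granule protein, differed by 4.50 ± 0.81 at 6 h (SE, adjusted p = 0.060), and CD14, a monocyte receptor, by 2.56 ± 0.57 (adjusted p = 0.076). The part of cell composition in the cytoskeletal values was not tested. In whole blood, fewer cells of a type and less RNA per cell cannot be told apart.

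Of the actin side, the largest changes at 6 h belonged to the 3 probes named TPM3 (tropomyosin 3). All 3 had higher levels at 6 h, with no overlap with 0 h. The probe at 539 read 4.02, 4.6 and 4.53 at 0 h, 5.46, 5.0 and 5.92 at 6 h, and 4.50, 4.69 and 4.76 at 24 h. The probe at 397 read 3.45, 4.06 and 4.01 at 0 h, 4.91, 4.49 and 5.43 at 6 h, and 4.07, 4.19 and 4.37 at 24 h. In both, 6 h replicate 3 was highest and 6 h replicate 2 lowest of its group, and the 24 h arrays lay below every 6 h array.

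The log2 change at 6 h against 0 h was 1.1 ± 0.31 for the TPM3 probe at 397, 1.08 ± 0.31 at 539 and 1.04 ± 0.32 at 556 (SE, limma adjusted p = 0.089, 0.090 and 0.10). It was above 0 for all 3 TPM3 probes under each of the 6 other scalings or normalizations tried, with medians between 0.80 and 1.28. Without 6 h replicate 2 the adjusted p was 0.032, 0.030 and 0.038, in a fit that called 2396 probes in all; over all alternatives it ran between 0.0013 and 0.31 for these probes. Between 24 h and 6 h the 3 probes differed by -0.73 ± 0.31, -0.81 ± 0.31 and -0.83 ± 0.32 (adjusted p = 0.21, 0.17 and 0.18), and spike-in centring brought the median to -0.06 with 1 of 3 above 0. Against 0 h they stood at 0.37, 0.27 and 0.21 at 24 h. The mean TPM3 deviation was 0.59, 0.17 and 1.11 on 6 h replicates 1, 2 and 3, and the neutrophil sums of these arrays were 9.51, 9.15 and 10.6. On 24 h replicates 1, 2 and 3 the TPM3 deviations were -0.35, -0.14 and -0.02 and the neutrophil sums 7.70, 8.27 and 6.96. The order of the arrays by TPM3 was that by neutrophil sum at 6 h but not at 24 h. At 24 h the array with the highest TPM3 value had the lowest neutrophil sum. The monocyte sums were 8.83, 8.38 and 9.85 on 6 h replicates 1, 2 and 3, and 7.39, 7.52 and 8.64 at 24 h. Their order was that by TPM3 at both of these times. At 0 h the order by TPM3 was that by neutrophil sum and not that by monocyte sum. A link of TPM3 to either list was not tested.

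The other tropomyosin probes did not share that size. Among them, TC239400 is described as like mouse tropomyosin 3 gamma, so by its description it belongs with TPM3. Whether it reads the same gene was not tested. It read 5.87, 5.95 and 6.04 at 0 h, 6.34, 6.10 and 6.84 at 6 h, and 5.98, 6.13 and 6.04 at 24 h. The 6 h arrays lay above the 0 h arrays, and the change was 0.47 ± 0.27 at 6 h (SE, adjusted p = 0.29). TPM4 is a tropomyosin of platelets and other non-muscle cells; its probe read 6.29, 7.98 and 6.77 at 0 h, 7.00, 7.85 and 7.04 at 6 h, and 6.90, 7.39 and 6.69 at 24 h. Replicate 2 was highest at every time, the groups overlapped, and the change at 6 h was 0.28 ± 0.44, or -0.06 after quantile normalization.

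TPM1, the alpha tropomyosin known from muscle, had 3 of 5 probes tested, with changes at 6 h of 0.08 ± 0.44, -0.14 ± 0.32 and -0.69 ± 0.65 (adjusted p between 0.52 and 0.93). Of these only the probe at 492 was well above background on all 9 arrays. The probe at 709 was so on 2, 1 and 3 of the 3 arrays at 0 h, 6 h and 24 h, and the probe at 1067 on 1, 1 and 3, so their changes rest in part on readings near background. TC283886, like a rat smooth-muscle alpha tropomyosin, read -0.45, 0.05 and -0.32 at 0 h, -0.49, 0.53 and -0.51 at 6 h, and 0.01, 0.16 and -0.09 at 24 h. Its groups overlapped, and it differed by 0.09 ± 0.33 at 6 h and 0.27 ± 0.33 at 24 h, both against 0 h. Among the muscle markers, 3 of 8 had a tested probe, and their summed signal lay between 2.39 and 3.59 at 0 h, between 2.86 and 3.29 at 6 h and between 2.27 and 3.4 at 24 h.

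CAPZA1, the alpha 1 subunit of capping protein, was the tested actin-side member with the largest change at 24 h against 0 h. It read -0.45, -1.08 and -0.78 at 0 h, -0.38, -0.20 and 0.36 at 6 h, and -0.09, -0.33 and 0.63 at 24 h. All 6 arrays after the dose lay above the 3 before it, replicate 1 at 0 h coming close. The change was 0.69 ± 0.34 at 6 h and 0.84 ± 0.34 at 24 h (SE, limma adjusted p = 0.23 and 0.33), above 0 under all 6 other scalings. The probe for LOC100037956, the beta 2 subunit in the files' naming, stood at 0.57 ± 0.33 at 6 h and 0.12 ± 0.33 at 24 h, both against 0 h.

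Gelsolin was read by 1 probe, TC279226, whose transcript matches a small part (8%) of pig gelsolin. Its levels were -1.55, -1.54 and -1.85 at 0 h, -1.16, -1.09 and -1.01 at 6 h, and -1.83, -1.14 and -2.20 at 24 h. The 6 h arrays lay close together and above all 0 h arrays. The change was 0.56 ± 0.31 at 6 h against 0 h and -0.64 ± 0.31 at 24 h against 6 h (SE, adjusted p = 0.27 and 0.26), the second being 0.11 with spike-in centring.

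CFL1, the non-muscle cofilin, had 2 probes on one target. The probe at 1330 read 6.65, 7.36 and 7.21 at 0 h, 7.09, 7.47 and 7.67 at 6 h, and 6.78, 7.06 and 6.69 at 24 h. The 24 h arrays lay below every 6 h array by a narrow margin, and both groups overlapped with 0 h. Its change was 0.33 ± 0.29 at 6 h and -0.23 ± 0.29 at 24 h, both against 0 h, while the probe at 761 stood at 0.63 ± 0.36 and 0.25 ± 0.36. The probes thus differed in sign at 24 h, but both were above 0 after quantile normalization, in the authors' deposited values, with normexp and with spike-in centring. At 6 h 1 of the 2 was below 0 after quantile normalization and in the authors' deposited values. CFL2, the cofilin known from muscle, had 2 of 4 probes tested, at 0.47 ± 0.43 and -0.15 ± 0.32 at 6 h (SE, adjusted p = 0.51 and 0.80).

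**Figure D2:**
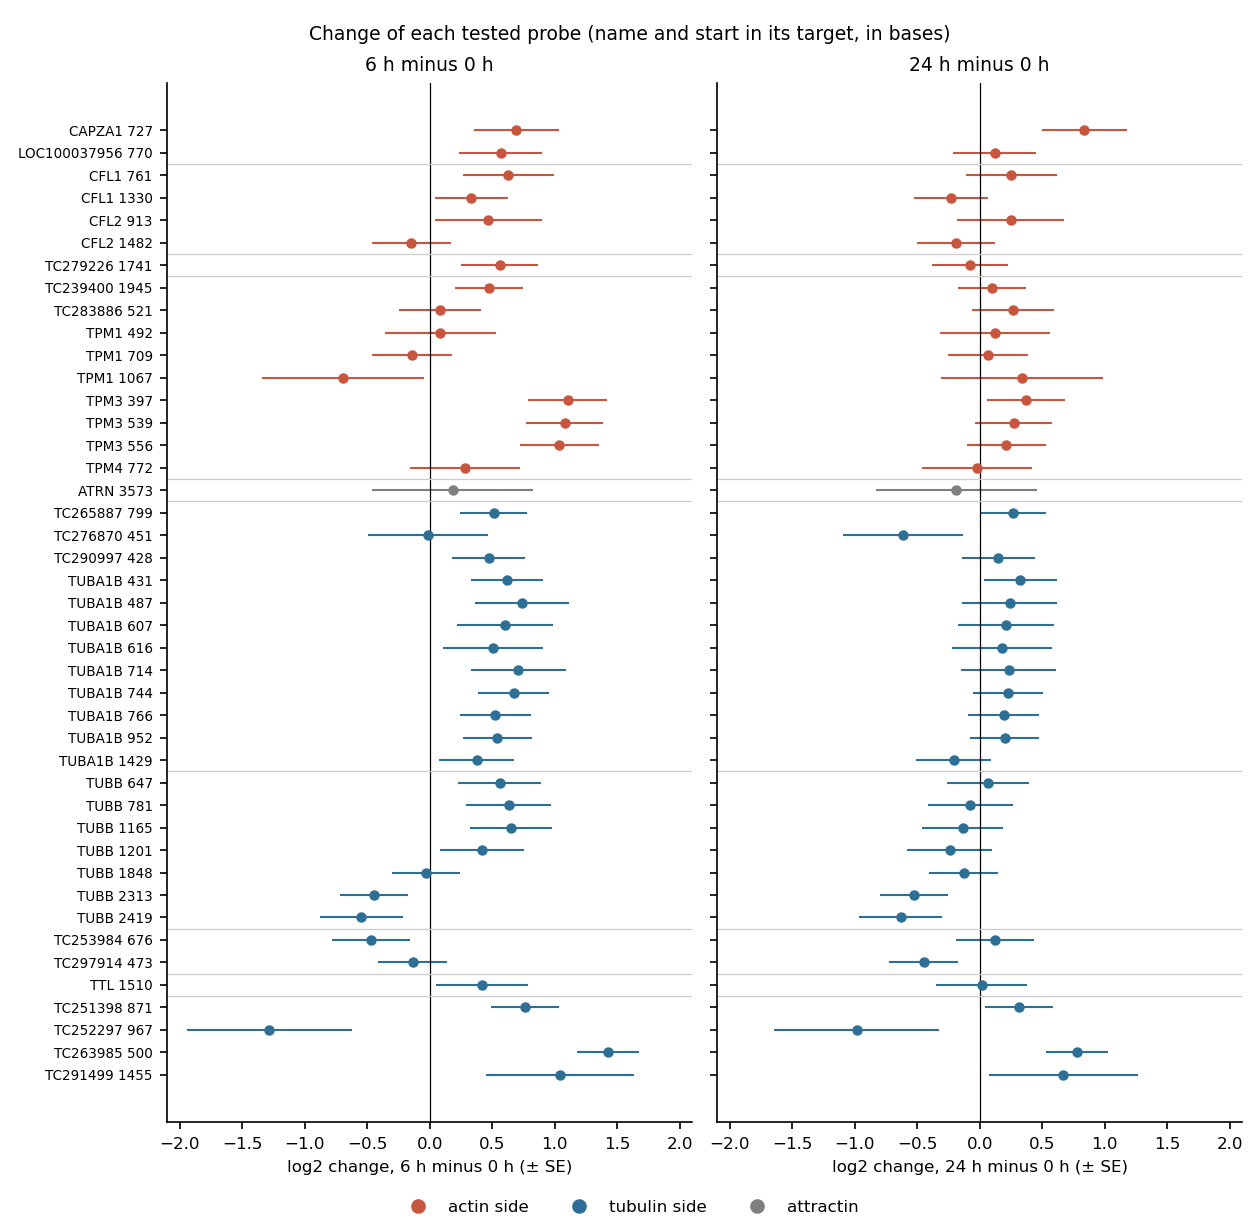
Log2 change (horizontal axis, ± SE) of each of the 43 tested probes at 6 h (left) and 24 h (right) against 0 h, grouped by role with thin lines between groups; each row gives the name and the first base of the probe in its target. TC263985, TC291499 and the 3 TPM3 probes lie farthest to the right at 6 h, and the 2 last TUBB probes lie left of 0 at both times.

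On the tubulin side, alpha tubulin was read mostly by TUBA1B (LOC733594 in the files), a widely expressed alpha tubulin, with 9 probes on one target. All 9 had the higher mean at 6 h, with changes between 0.38 and 0.74 and adjusted p between 0.17 and 0.45, and they were above 0 under all 6 other scalings. The probe at 744 read 2.99, 3.69 and 3.59 at 0 h, 3.92, 4.02 and 4.34 at 6 h, and 3.49, 3.77 and 3.69 at 24 h. Its 6 h arrays lay above all others, and its change was 0.67 ± 0.28 (SE, adjusted p = 0.17).

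The TUBA1B probe at 1429 read 5.51, 6.10 and 5.89 at 0 h, 5.80, 6.55 and 6.28 at 6 h, and 5.45, 5.92 and 5.51 at 24 h. Its groups overlapped. It had the smallest change of the 9 at 6 h, 0.38 ± 0.30, and at 24 h against 0 h it stood at -0.21 ± 0.30, while the other 8 stood between 0.18 and 0.32. All 9 were lower at 24 h than at 6 h, between -0.30 and -0.58, but 2 of 9 were higher after quantile normalization and in the authors' deposited values, and with spike-in centring all 9 were higher, with a median of 0.35.

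Among the other tested alpha tubulin transcripts, TC265887 and TC290997 had changes close to those of TUBA1B at 6 h, and TC276870 did not. TC265887 and TC290997, clusters like rat and mouse alpha tubulin, stood at 0.51 ± 0.27 and 0.47 ± 0.29 at 6 h, and they share between 20 and 45 bases with TUBA1B probes, so signal of TUBA1B transcripts in them cannot be told apart from their own. TC276870, like alpha tubulin 8, differed by -0.01 ± 0.48 at 6 h and was well above background on 7 of 9 arrays, 1 array at each time after the dose falling short. Alpha and beta tubulins are families of near-identical copies, and which copies a probe read was not tested.

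TUBB (LOC733686 in the files, named there as beta 5-tubulin), a beta tubulin of most tissues, had 7 probes on one target, and these disagreed by position. The 4 probes that start between 647 and 1201 had changes of 0.56, 0.63, 0.65 and 0.42 at 6 h against 0 h, in order along the target. The probe at 1848 stood at -0.03 ± 0.27. The probes at 2313 and 2419 stood at -0.45 ± 0.27 and -0.55 ± 0.33 (SE, adjusted p = 0.32 and 0.31). The signs at 6 h were the same for the first 4 and the last 2 probes under all 6 other scalings, and none of the 7 passed in limma.

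The array values show where the TUBB probes parted. The probe at 1165 read 3.49, 4.59 and 4.19 at 0 h, 4.71, 4.52 and 4.99 at 6 h, and 3.98, 4.20 and 3.69 at 24 h. The probe at 2419 read 5.70, 5.58 and 5.56 at 0 h, 4.73, 5.82 and 4.66 at 6 h, and 4.80, 5.06 and 5.08 at 24 h. At 1165, the 6 h arrays lay above those of 24 h and overlapped with 0 h. At 2419, 6 h replicates 1 and 3 were low and replicate 2 was the highest of all 9 arrays, while the 24 h arrays all lay below the 0 h arrays.

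Without 6 h replicate 2 the change at 2419 was -0.92 (adjusted p = 0.042, between 0.0049 and 0.69 over all alternatives). The last 2 probes stood at -0.53 ± 0.27 and -0.63 ± 0.33 at 24 h against 0 h (SE, limma adjusted p = 0.42 for both), and with spike-in centring both were above 0, with a median of 0.37. The first 4 stood between -0.24 and 0.07. Setting the last 2 probes against the first 4 within each array gave 1.11, 0.05 and 0.39 at 0 h, -0.78, 0.22 and -1.09 at 6 h, and -0.11, -0.17 and 0.37 at 24 h, as differences of deviations. The lowest values came from 6 h replicates 1 and 3, the groups overlapped, and no test was made, since the probes were set apart after their values were seen.

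As a description over the 9 arrays, which share their scaling, the first 4 TUBB probes correlated with each other at Pearson r between 0.94 and 0.99 and the last 2 at 0.92. Between the first 4 and the last 2, r lay between -0.41 and 0.10. The first 4 correlated with the TUBA1B probes at r between 0.69 and 0.95, and the last 2 with them at between -0.57 and 0.32. The GC content was 45.0%, 55.0%, 50% and 45.0% in the first 4 probes and 43.3% and 36.7% in the last 2, and its part in the difference was not tested.

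**Figure D3:**
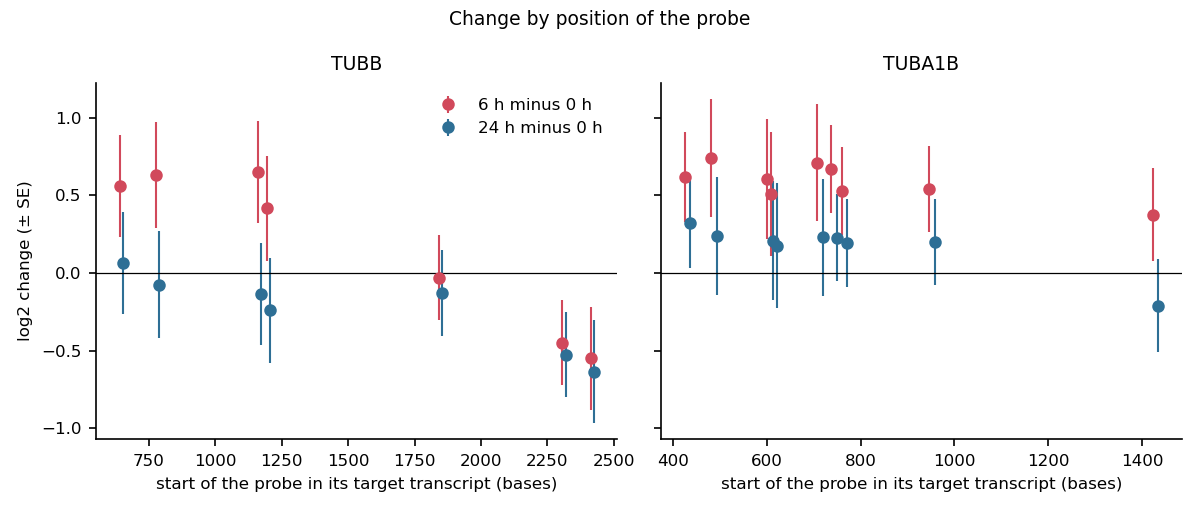
Log2 change against 0 h (vertical axis, ± SE) of the 7 TUBB and 9 TUBA1B probes by the first base of the probe in its target transcript (horizontal axis) at 6 h and 24 h. For TUBB the 4 probes before base 1300 lie above 0 at 6 h and the 2 last probes below it, while all 9 TUBA1B probes lie above 0 at 6 h.

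None of the transcripts for the tubulin cofactors and the ligase passed in limma. TC297914, like tubulin folding cofactor D, read 5.35, 5.73 and 5.58 at 0 h, 5.07, 5.80 and 5.37 at 6 h, and 4.95, 5.24 and 5.12 at 24 h. The 24 h arrays lay below the 0 h arrays, and the change at 24 h was -0.45 ± 0.28 (SE, adjusted p = 0.49), or 0.50 with spike-in centring. TC253984, like cofactor E, differed by -0.47 ± 0.31 at 6 h and by 0.12 ± 0.31 at 24 h, both against 0 h. At 24 h against 6 h it stood at 0.59 ± 0.31 (SE, adjusted p = 0.30) with overlapping groups, while 24 of the 26 tubulin-side probes were lower. TTL, which adds back the tyrosine at the end of alpha tubulin, read -2.58, -1.50 and -2.02 at 0 h, -1.86, -1.84 and -1.14 at 6 h, and -2.49, -1.62 and -1.94 at 24 h. Its groups overlapped, and it differed by 0.42 ± 0.37 at 6 h and by 0.02 ± 0.37 at 24 h. ATRN, which belongs to neither side, read 0.81, 2.22 and 1.75 at 0 h, 2.35, 2.18 and 0.80 at 6 h, and 2.08, 2.22 and -0.07 at 24 h, with overlap between all times.

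The tubulin side also held 4 transcript clusters that match between 4% and 7% of a protein from outside the vertebrates. That protein is called tubulin in the description, and the link to tubulin rests on the description alone. For TC251398 the description names a bacterial protein, YqfQ, and a different cluster, TC262359. Without these 4 clusters the median of the tubulin side was 0.51 at 6 h and 0.09 at 24 h, both against 0 h. TC263985, with a match of 5% to a bacterial tubulin, read -3.34, -3.17 and -3.61 at 0 h, -1.92, -2.07 and -1.85 at 6 h, and -2.46, -2.67 and -2.66 at 24 h. The 3 times did not overlap, and the probe was well above background on all 6 arrays after the dose and on none of the 3 before it.

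Only a bound can be given for TC263985 at 0 h: it was at least 1.82-fold higher at 6 h than at 0 h and at least 1.16-fold higher at 24 h. The bound sets the mean after the dose against, for each 0 h array, the higher of the probe's own signal and the lowest signal that was well above background. The fitted adjusted p was 0.060 at 6 h and 0.26 at 24 h. These values rest on background readings at 0 h, and the probe entered the test only through the times at which it was high, so nothing is read from them. With normexp background correction the difference was 0.25 at 6 h and -0.19 at 24 h. TC251398, another such cluster, read 3.51, 3.70 and 4.06 at 0 h, 4.26, 4.47 and 4.83 at 6 h, and 4.02, 4.24 and 3.95 at 24 h, and its 6 h arrays lay above all others. Its change at 6 h was 0.76 ± 0.28 (SE, limma adjusted p = 0.13). TC291499 differed by 1.04 ± 0.59 at 6 h (adjusted p = 0.29), with overlapping groups and 2 of 3 arrays above background at 0 h. TC252297 went the other way, with -1.28 ± 0.66 at 6 h (adjusted p = 0.25) and overlapping groups.

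**Figure D4:**
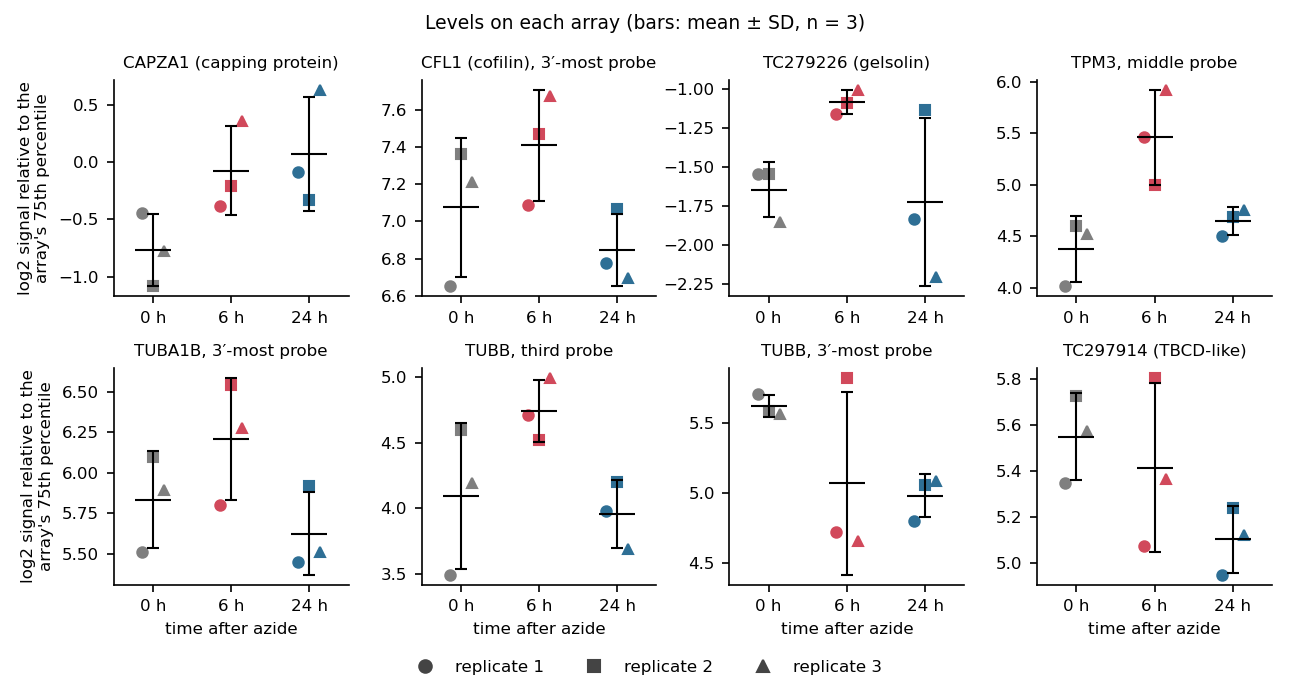
Level of 8 members on each array (vertical axes, log2 signal relative to the 75th percentile of the array, each panel with its own range) at 0 h, 6 h and 24 h after azide. Symbols are arrays and bars are the mean ± SD of 3; the 6 h arrays lie above the 0 h arrays for CAPZA1, gelsolin and TPM3, and the 24 h arrays lie below the 0 h arrays for the 3′-most TUBB probe and TC297914.

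ACTB, the main actin of blood cells, lay outside the members because its descriptions did not hold the words searched for. Its 4 tested probes, starting at 1858, 1698, 1690 and 439, differed by 0.32, 0.14, 0.08 and 0.84 at 6 h against 0 h. In the same order they differed by -0.24, -0.60, -0.59 and 0.55 at 24 h against 0 h, and none passed. The probe with the lowest start, at 439, thus had the highest change at both times. It read 3.15, 5.46 and 4.99 at 0 h. The part of probe position in these differences was not tested. The probe at 1858 read 9.44, 10.7 and 10.1 at 0 h, 10.1, 10.7 and 10.4 at 6 h, and 9.88, 10.2 and 9.44 at 24 h, with overlap throughout. The 5 members most like it over the 9 arrays were TPM4 (r = 0.91), the TUBA1B probes at 616, 1429 and 607 (0.89, 0.88 and 0.88) and the CFL1 probe at 1330 (0.88). For the TUBA1B probe at 1429 they were the CFL1 probe at 1330 (r = 0.93), TUBB at 1201 (0.80), TC290997 (0.79), TUBA1B at 766 (0.775) and TC276870 (0.76). These are descriptions over arrays that share their scaling, without a test.

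Of 53 other actin regulators listed, 11 had a tested probe, and 7 were higher and 4 lower at 6 h against 0 h, with a median of 0.27. None passed in limma. At an unadjusted p below 0.05, 2 were higher (18.2%, beside 14.7% of all tested probes): WAS, which switches on branched actin growth in blood cells, at 0.96 ± 0.33 (adjusted p = 0.12), and MSN (moesin, which ties actin to the membrane) at 1.36 ± 0.58 (adjusted p = 0.18). By 24 h, 8 of 11 were lower than at 0 h, with a median of -0.20. At an unadjusted p below 0.05, 3 were lower (27.3%, beside 8.56% of all tested probes) and 0 higher. These were RDX (radixin, a relative of moesin) at -1.04 ± 0.43, MYL6 (a myosin light chain) at -0.93 ± 0.36 and TMSB10, which binds actin monomers, at -0.69 ± 0.28 (SE, adjusted p = 0.33, 0.31 and 0.33). Of 26 other microtubule genes, 5 had a tested probe, with a median of 0.13 at 6 h and 4 of 5 higher, between 0.07 and 0.66. The other, STMN1 (stathmin), which binds tubulin dimers, stood at -1.06 ± 0.33 at 6 h (SE, adjusted p = 0.10).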

How the data were processed

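Whole blood RNA of 9 samples was hybridised to 1-colour porcine arrays. Per the file headers, the deposited scanner files hold spot intensity (background-subtracted processed signal, raw mean signal and local background) and quality flags from Agilent Feature Extraction 10.5.1.1; per the submitters' processing notes the version was 9.5.3.1. The authors' deposited series-wide table holds intensity on a linear scale, normalized in a way not given in the sources used here, and served as an alternative.

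Control spots and spots with outlier flags were dropped, replicate spots were averaged per probe, 7 probes lacked a usable spot on some array, and levels are log2 processed signal minus the 75th percentile of the array. All 9 arrays entered 1 limma fit with time as the only term and Benjamini-Hochberg adjustment over 19783 probes, with a threshold of 0.05. The tools were limma 3.58.1 and R 4.3.3, and Python 3.11.15, pandas 2.3.3 and matplotlib 3.10.9 for tables and plots. The fit was checked on simulated data with known changes at 6 h. It called 4% of the probes with a true log2 change of 1 and 73% of those with 2. A change that did not pass is therefore not shown to be absent. Symbols came from gene names and RefSeq accessions in the files (2971 of 43603 probes); no genome was used. Array values are given for the probe with the highest mean signal in each role, a choice of probes and not a comparison of genes, and, in each comparison and side, for the 4 tested members with the smallest p; some further probes of TPM3, TUBA1B and TUBB are given by their changes, and TC239400 was added after its values were seen. The members, roles and lists were chosen with earlier results of these data known. Alternatives covered scaling, background correction, filters, fits, a replicate block and leaving out each array. Some probe sequences are not reported here.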

Additional observations from a re-analysis of the deposited data

Results flagged for a closer look

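Some members were too dim to be tested and yet stood well above background on an array after the dose and on none before it. The alpha actin-like cDNA Z98823 read 0.52 on 24 h replicate 1, while the other 8 arrays read between -5.37 and -3.35. TC288917, a transcript like chicken muscle cofilin 2, read -1.97 on 6 h replicate 3. TC301900, a tropomyosin cluster, read -3.61 on 24 h replicate 3, and TC270449, an alpha tubulin cluster, read -2.74 on 24 h replicate 2. The TPM1 probe at 663 read -2.92 and -3.51 on 24 h replicates 2 and 3. Each rests on 1 or 2 arrays of 3, and none was tested.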

How the results depend on the processing

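The spread between 3 arrays a time limits what could be called, and TC263985, at background on all 0 h arrays, has only a bound there. The count of all probes called at 6 h against 0 h, 5, was 8 with quantile normalization and with the deposited values, 52 with spike-in centring, 9889 with array weights, 620 with replicate number as a block, and 0 with the percentile over probes detected on all arrays, normexp, no filter, the filter on all 9 arrays, a trended robust fit or only the arrays compared. For 24 h against 0 h it was 6 with quantile normalization and with the deposited values, 3881 with spike-in centring and 5445 with array weights, against 0; at 24 h against 6 h it was 5769 with array weights, against 0. Leaving out 1 array gave between 0 and 2396 calls at 6 h, between 0 and 0 at 24 h against 0 h, and between 0 and 1767 at 24 h against 6 h; 2396 and 1767 came without 6 h replicate 2, and 25 at 6 h without 24 h replicate 3. The cause was not tested.

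The actin median at 6 h was 0.27 with quantile normalization, 0.28 with the deposited values, 0.26 with normexp and 0.67 with spike-in centring. With no filter, over all 28 actin-side probes, it was 0.18, and without 1 array it lay between 0.29 and 0.58. By 24 h it was 1.12 with spike-in centring, and between 0.046 and 0.38 without 1 array. At 24 h against 6 h it was 0.0060 with quantile normalization, 0.0059 with the deposited values, 0.41 with spike-in centring, -0.12 with the percentile over detected probes, -0.16 with normexp and -0.16 with array weights. The tubulin median with spike-in centring was 1.08 at 24 h against 0 h and 0.37 at 24 h against 6 h; without 1 array it lay between 0.24 and 0.69 at 6 h, between -0.21 and 0.29 at 24 h against 0 h and between -0.55 and -0.31 at 24 h against 6 h. The other side medians, with 1 probe per gene or gene means among them, moved by less than 1 SD between replicates.

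Of the 43 tested members, the threshold was passed at 6 h against 0 h by 13 with array weights (30.2%, beside 50% of all tested probes) and 5 without 6 h replicate 2 (11.6%, beside 12.1%). At 24 h against 0 h it was passed by 21 with spike-in centring (48.8%, beside 19.6%) and 7 with array weights (16.3%, beside 27.5%), and at 24 h against 6 h by 5 with array weights (11.6%, beside 29.2%); each of these counts includes TC263985. Same-numbered arrays correlated in their deviations at between -0.20 and 0.64, over 0.1 in 5 of 9 pairs. These values do not settle whether same-numbered arrays are from the same pig. The numbers were not taken as pairs because the labels do not say that they are. With the block 1 member passed at 6 h (2.33%, beside 3.13% of all tested probes). It was TC263985, whose 0 h readings are at background, so nothing is read from it.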
